A study of Mus musculus with 9 samples.

Results

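The Toll-like receptors were examined in mouse bone marrow (BM)-derived Mϕs as a family of 10 genes, Tlr1 to Tlr9 and Tlr13. The members were taken by their symbols, and each was found once among the 53379 genes of the deposited table. BM cells of C57BL/6 mice, given as wild type, were first cultured for 3 days in 10 ng/ml CSF-1, on which Mϕs depend for growth and differentiation. They were then kept for 4 days in 10 ng/ml CSF-1 alone (control), with 10 ng/ml IL-4 added, or with 100 ng/ml IL-6 added, as the sample labels give it. The study's methods differ from the labels in the dose of IL-4, and its figure legends differ in dose and time. The 3 conditions have 3 RNA-seq libraries each, numbered by mouse, so that every group carries CSF-1 and no sample is untreated with it. RNA-seq was run to see how IL-6 shifts Mϕ gene expression, with IL-4 as the cytokine of known alternative activation.

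Toll-like receptors are membrane proteins that bind molecules of microbes or of damaged cells. Tlr1, Tlr2, Tlr4, Tlr5 and Tlr6 act at the cell surface on lipids and proteins, and Tlr3, Tlr7, Tlr8, Tlr9 and Tlr13 act in endolysosomes on nucleic acids. Bound receptors recruit the adaptors Myd88 or Ticam1, which lead through Irak and Traf proteins to NF-κB and interferon regulatory factors and to the cytokine genes these turn on. In Mϕs they are known as a main way of sensing infection.

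With IL-4, 4 of the 10 receptors fell (Tlr2, Tlr9, Tlr5 and Tlr7) and the other 6 did not pass the threshold. With IL-6, only Tlr2 rose past the threshold by this test. Between IL-6 and IL-4, 5 receptors were higher with IL-6 (Tlr2, Tlr9, Tlr5, Tlr1 and Tlr3). The test was limma on log2(FPKM + 0.1), where FPKM is the number of fragments scaled to the exon length and to the total of the library. A gene passed when its log2 fold change was 1 or more in size and its p, adjusted by Benjamini-Hochberg, was under 0.05. All 10 receptors were among the 12824 genes tested, those with a mean of at least 0.5 FPKM. By the same rule 13.9% of all genes tested passed for IL-4 against control (5.02% higher and 8.89% lower), 5.38% for IL-6 against control (3.49% higher and 1.89% lower) and 20.4% for IL-6 against IL-4 (13.6% higher and 6.82% lower). The single call for IL-6 is near that background. The median log2 fold change of the receptors against control was −0.84 with IL-4 and 0.28 with IL-6, beside −0.20 and −0.00 over all genes tested. Both comparisons with control use the same 3 control libraries.

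Counted by range alone, 7 receptors had all IL-4 libraries below all control libraries, against 26.8% of all genes tested, and none lay wholly above control, against 13.5%. With IL-6, 5 receptors lay wholly above control, against 20% of all genes, and Tlr7 lay wholly below it, as did 23.2% of all genes. All IL-6 libraries lay above all IL-4 libraries for 8 receptors, against 36.3% of all genes, the exceptions being Tlr4 and Tlr8, and none lay wholly below, against 20.6%. A receptor whose groups did not overlap had a two-sided exact permutation p of 0.1, the smallest that 3 libraries against 3 can give.

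**Figure D1:**
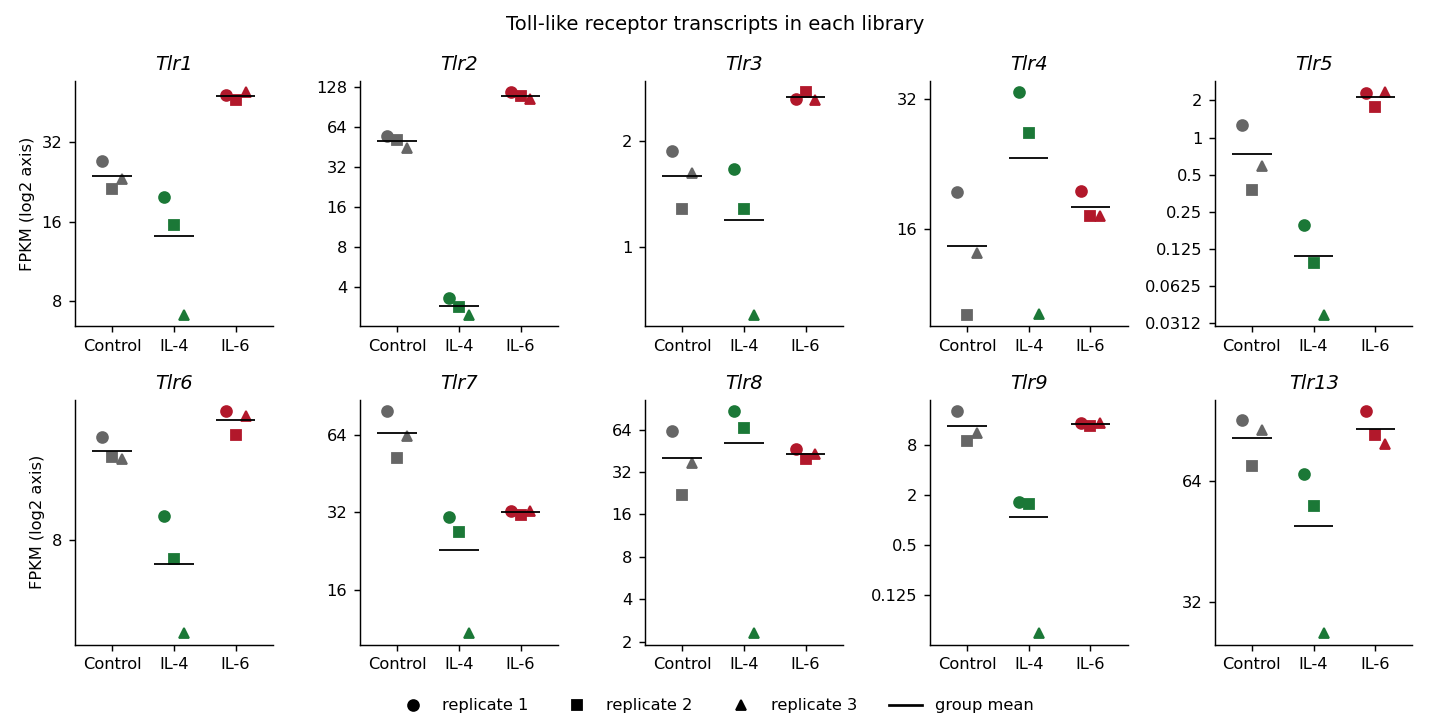
Level of each receptor in each library, in FPKM on a log2 axis that differs between panels, for Mϕs in CSF-1 alone or with IL-4 or IL-6. Each symbol is a library and the line is the group mean of 3. IL-6 libraries lie above control for Tlr1, Tlr2, Tlr3, Tlr5 and Tlr6, and IL-4 #3 (green triangle) is the lowest IL-4 library in all 10 panels.

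The libraries held 29988160 to 39909571 fragments. IL-4 #3 stood apart from the other IL-4 libraries. Its root mean square difference from IL-4 #1 and #2 over the tested genes was 1.23 and 1.09 on the log2 scale, while libraries of the same condition otherwise differed by 0.453 to 0.682. Longer genes were lower in it than in its group mean (Spearman's rho −0.43 between deviation and exon length across 11372 genes, which are not independent replicates), as they also were in Control #2 (rho −0.44). The summed level of the 10 receptors was 65.5 FPKM in IL-4 #3, against 203 and 253 in the other IL-4 libraries, 249 to 370 in control and 358 to 395 with IL-6. The libraries also divide by intestinal transcripts, whose 17 genes summed to 31.1 to 44.9 FPKM in the control libraries and IL-4 #1 and to 0.0139 to 0.110 FPKM in the other 5. Control and IL-6 thus share no set, and for these groups the set and the cytokine cannot be told apart by comparing libraries within a set. Lyz1 was left out of the intestinal sum as nearly identical to Lyz2. It was at 26.8 to 32.8 FPKM in control, 1.31 to 14.1 FPKM with IL-4 and 12.1 to 12.9 FPKM with IL-6. A set-adjusted fit, which adds the set to the model, can be had only because IL-4 #1 lies in the set of the controls and IL-4 #2 and #3 in that of IL-6. Its estimate for IL-4 against control is IL-4 #1 alone against the controls. For IL-6 against IL-4 it is the IL-6 libraries against IL-4 #2 and #3. The estimate for IL-6 against control is the sum of both, so it rests on IL-4 #1, #2 and #3. A call lost or gained in this fit therefore does not separate the set from the cytokine. The values of this fit are given where it changes the call of a receptor or a count of markers. Transcripts of skeletal muscle divided the other way for a few genes, with Myh1, Mb and Myl1 at 0 in the control libraries and IL-4 #1 and Myl1 at 0.675 to 1.27 FPKM with IL-6. Over all 16 muscle markers the sums overlapped, at 5.95 to 8.45 FPKM in control, 2.78 to 12.8 FPKM with IL-4 and 9.80 to 16.4 FPKM with IL-6.

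The upstream sequences of 3 receptors are shown, Tlr2 and Tlr9 because they had the largest estimated falls with IL-4 in the fit of all 9 libraries and Tlr8 because it alone held both STAT-type motifs. They are from the RefSeq promoter table on GRCm38.p6, which has windows of 300 bases (250 before to 50 after a start) for 8 of the 10 receptors, and only bases outside annotated exons are printed. Capitals mark motif matches, in Tlr2 those to the NF-κB consensus and in Tlr8 those to TTCNNNGAA and to TTC and GAA set 4 bases apart.
Tlr2, chr3:83841768-83841858, minus strand: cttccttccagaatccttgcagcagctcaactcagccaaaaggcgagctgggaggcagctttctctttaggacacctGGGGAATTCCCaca
Tlr9, chr9:106222348-106222597, plus strand: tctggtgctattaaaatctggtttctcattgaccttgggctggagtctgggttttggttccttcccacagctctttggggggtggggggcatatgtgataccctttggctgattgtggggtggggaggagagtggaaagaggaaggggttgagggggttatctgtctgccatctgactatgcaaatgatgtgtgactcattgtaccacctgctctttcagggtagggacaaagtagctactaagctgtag
Tlr8, chrX:167264330-167264579, minus strand: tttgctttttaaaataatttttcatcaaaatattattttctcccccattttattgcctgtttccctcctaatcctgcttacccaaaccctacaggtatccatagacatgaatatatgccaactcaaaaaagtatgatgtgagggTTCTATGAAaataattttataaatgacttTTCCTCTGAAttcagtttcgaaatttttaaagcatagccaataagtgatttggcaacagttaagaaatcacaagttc

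Motifs were searched on both strands of all 32851 windows. The NF-κB consensus, 10 letters long, was in 8.46% of all windows and in those of Tlr2 and Tlr3. In Tlr2 its matches 173 and 172 bases before the start overlap in 1 palindrome, and another match 8 bases before the start lies in annotated exon and is not printed. TTCNNNGAA was in 8.3% of all windows and in those of Tlr1, Tlr6 and Tlr8, and the form with 4 bases between TTC and GAA in 6.95% and in that of Tlr8. The ETS core GGAAGT was in 23.8% and in windows of Tlr1, Tlr2, Tlr6 and Tlr9, and the interferon response type, GAAA repeated after a gap of 2 bases, in 3.44% and in a window of Tlr6. No binding was measured, and the matches describe the letters only.

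Tlr2 (ENSMUSG00000027995.10, chr3:83836272-83841767, minus strand, GRCm38), the receptor of bacterial lipoproteins that pairs with Tlr1 or Tlr6, passed in all 3 comparisons, as no other receptor did, and had the smallest standard error of the 10. Its level was 55.0, 51.6 and 44.6 FPKM in Control #1 to #3, 3.29, 2.82 and 2.47 FPKM in IL-4 #1 to #3, and 118, 110 and 104 FPKM in IL-6 #1 to #3. No library of any group overlapped another group, and IL-4 #3 lay close to the other IL-4 libraries. The group means were 50.4 ± 5.31 FPKM in control, 2.86 ± 0.412 FPKM with IL-4 and 111 ± 6.69 FPKM with IL-6 (SD, n = 3). The control mean of Tlr2 was 17.6 times its IL-4 mean, and the limma estimate on log2(FPKM + 0.1) was −4.10 ± 0.138 (estimate ± standard error, limma adjusted p = 1.94e-06). With IL-6 its log2 fold change against control was 1.14 (limma adjusted p = 0.00206), or 1.44 after set adjustment (adjusted p = 0.0315). Tlr2 kept both calls in each of 21 alternatives. Among them, adjusted p alone only drops the threshold for size from the main fit, so it could not lose a call. Within the set of libraries that holds the controls, IL-4 #1 was 15.3 times below the control mean.

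Tlr1 (ENSMUSG00000044827.10, chr5:64924679-64933563, minus strand), the partner of Tlr2 for triacyl lipopeptides, moved less. It was at 27.1, 21.3 and 23.1 FPKM in control, 19.8, 15.6 and 7.11 FPKM with IL-4, and 48.3, 46.1 and 49.4 FPKM with IL-6. All 3 groups were separate, with IL-6 highest, and IL-4 #1 was closest to the control range. IL-6 against IL-4 passed (log2 fold change 1.87, standard error 0.33, limma adjusted p = 0.00339). Neither comparison with control passed, at 1.01 for IL-6 (limma adjusted p = 0.114) and −0.86 for IL-4 (adjusted p = 0.094) on the log2 scale. Without IL-4 #3 the value for IL-6 had an adjusted p of 0.000917 and passed, and it also passed after median-ratio or quantile scaling and in a fit of the 2 groups alone. The value for IL-4 was −0.43 without IL-4 #3 and −0.26 after set adjustment, and it passed without IL-4 #1 (−1.16, adjusted p = 0.0274).

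Tlr6 (ENSMUSG00000051498.6, chr5:64952031-64960097, minus strand), the partner of Tlr2 for diacyl lipopeptides, lies beside Tlr1. Its level was 12.7, 11.6 and 11.5 FPKM in control, 8.90, 7.34 and 5.23 FPKM with IL-4, and 14.3, 12.8 and 14.0 FPKM with IL-6. The IL-4 libraries were lowest, and the lowest IL-6 library was just above the highest control library. Its log2 fold change with IL-4 was −0.76 (limma adjusted p = 0.0185), under the threshold for size, and with IL-6 it was 0.20 (adjusted p = 0.618). IL-6 against IL-4 was 0.96 (limma adjusted p = 0.00523), again under the threshold for size, and passed after set adjustment (1.13, adjusted p = 0.0021). Of 50-base stretches in annotated transcripts, 15.4% of those of Tlr1 and 12.3% of those of Tlr6 occur in another gene as well, chiefly in each other, so that the split of reads between them is uncertain.

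Tlr4 (ENSMUSG00000039005.13, chr4:66827584-66930284, plus strand), the lipopolysaccharide receptor, was not called in any comparison. It was at 19.5, 10.1 and 14.1 FPKM in control, 33.2, 26.7 and 10.1 FPKM with IL-4, and 19.6, 17.1 and 17.1 FPKM with IL-6. IL-4 #1 and #2 were above every control library, while IL-4 #3 was level with the lowest, Control #2, to within rounding. The log2 fold change with IL-4 was 0.56 (95% interval −0.41 to 1.54, limma adjusted p = 0.374), and without IL-4 #3 it was 1.08 (adjusted p = 0.0105) and passed. Within the control set, IL-4 #1 was 2.28 times the control mean. For IL-6 the value was 0.35 on the log2 scale (95% interval −0.63 to 1.32).

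Tlr5 (ENSMUSG00000079164.8, chr1:182954788-182976044, plus strand), the flagellin receptor, was the lowest receptor in every group. It was at 1.26, 0.376 and 0.583 FPKM in control, 0.195, 0.0964 and 0.0366 FPKM with IL-4, and 2.30, 1.78 and 2.33 FPKM with IL-6. The groups were separate in the order IL-4, control, IL-6. These are low counts, with 7 to 32 fragments a library with IL-4, 54 to 211 in control and 279 to 385 with IL-6. The log2 fold change with IL-4 was −1.93 (standard error 0.437, limma adjusted p = 0.0139). It missed the threshold in the fit of the 2 groups alone (adjusted p = 0.0665), after set adjustment (log2 fold change −1.37, adjusted p = 0.203) and with a pseudocount of 1 (log2 fold change −0.62). With IL-6 it was 1.55 (adjusted p = 0.0729), which passed in 6 alternatives, among them without Control #1 (1.96, adjusted p = 0.0357) and without IL-4 #3 (adjusted p = 0.0244). Between IL-6 and IL-4 the log2 fold change was 3.48 (limma adjusted p = 0.000603).

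Among the endolysosomal receptors, 2 of 5 fell with IL-4, against 8.89% of all genes tested. With IL-6 limma called 0 of 5, with 2 at an unadjusted p under 0.05 and 0 called by voom. Tlr9 (ENSMUSG00000045322.10, chr9:106222598-106226883, plus strand), the receptor of unmethylated CpG DNA, had the widest range of the family, 7.18 on the log2 scale over the 9 libraries. It was at 20.7, 8.89 and 11.1 FPKM in control, 1.67, 1.57 and 0.0432 FPKM with IL-4, and 14.9, 13.4 and 14.8 FPKM with IL-6. All IL-4 libraries were below all others, IL-4 #3 held only 6 fragments of it, and IL-6 lay inside the control range. The log2 fold change with IL-4 was −4.09 (standard error 0.881, limma adjusted p = 0.0114). Without IL-4 #3 it was −2.90 (adjusted p = 0.000256), and after set adjustment −2.86 (adjusted p = 0.182). Within the control set, the control mean was 8.15 times IL-4 #1. With IL-6 against control it was 0.17 (95% interval −1.85 to 2.2), and against IL-4 4.27 (limma adjusted p = 0.00717), or 3.07 without IL-4 #3.

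Tlr7 (ENSMUSG00000044583.13, chrX:167304929-167330558, minus strand), a receptor of single-stranded RNA, was the one member that lay below control with either cytokine. It was at 79.8, 52.0 and 63.3 FPKM in control, 30.8, 26.9 and 10.8 FPKM with IL-4, and 32.5, 31.2 and 32.5 FPKM with IL-6. All treated libraries were under the lowest control library, and IL-4 #1 lay just under the IL-6 libraries. The log2 fold change with IL-4 was −1.62 (standard error 0.363, limma adjusted p = 0.0133). It missed the threshold without Control #1 (−1.46, adjusted p = 0.0538), in the fit of the 2 groups alone (adjusted p = 0.0551) and after set adjustment (−1.05, adjusted p = 0.213). With IL-6 it was −0.996 (95% interval −1.83 to −0.16, adjusted p = 0.156). It passed once the trends of each library on exon length and GC content were taken out (−1.21, adjusted p = 0.00521), and after set adjustment it was −0.15.

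Tlr8 (ENSMUSG00000040522.5, chrX:167242696-167264329, minus strand), a relative of Tlr7 that lies next to it on the X chromosome, had the largest standard error of the 10 receptors. It was at 62.0, 21.8 and 37.2 FPKM in control, 87.1, 65.2 and 2.28 FPKM with IL-4, and 46.8, 39.2 and 42.7 FPKM with IL-6. IL-4 #1 and #2 were above every other library and IL-4 #3 was below all of them. Its log2 fold change with IL-4 was −0.63 (standard error 1.21, limma adjusted p = 0.732) with IL-4 #3 and 1.03 (adjusted p = 0.0636) without it, so that 1 library set the sign, and after set adjustment it was 1.24 (adjusted p = 0.738). The value for IL-6 was 0.21 (95% interval −2.56 to 2.99).

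Tlr13 (ENSMUSG00000033777.3, chrX:106143204-106160493, plus strand, from the next version of the gene in the annotation), which senses bacterial ribosomal RNA, was the most abundant receptor in control. It was at 90.5, 69.7 and 85.7 FPKM in control, 66.4, 55.5 and 26.8 FPKM with IL-4, and 95.7, 83.2 and 79.2 FPKM with IL-6. The IL-4 libraries were below the control libraries, and IL-6 overlapped control. The log2 fold change with IL-4 was −0.82 (limma adjusted p = 0.0909), and without IL-4 #1, whose removal leaves IL-4 #2 and #3, it was −1.08 (adjusted p = 0.0339). It was −0.42 without IL-4 #3 (adjusted p = 0.0518) and −0.29 after set adjustment (adjusted p = 0.745). IL-6 against IL-4 was 0.89 (limma adjusted p = 0.0561), and 1.15 after set adjustment (adjusted p = 0.0207), which passed. With IL-6 it was 0.07 (95% interval −0.64 to 0.78).

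Tlr3 (ENSMUSG00000031639.12, chr8:45395665-45411080, minus strand), the receptor of double-stranded RNA, was low. It was at 1.88, 1.28 and 1.62 FPKM in control, 1.66, 1.29 and 0.645 FPKM with IL-4, and 2.63, 2.75 and 2.61 FPKM with IL-6. IL-6 was above both other groups, and IL-4 overlapped control. IL-6 against IL-4 passed, by 1.18 on the log2 scale (standard error 0.308, limma adjusted p = 0.02). The call did not hold after median-ratio or quantile scaling. The log2 fold change was under the threshold for size without IL-4 #3 (0.82), with a pseudocount of 1 (0.76) and with the length and GC trend removed (0.71). The comparison had a limma adjusted p of 0.0592 to 0.0647 without any 1 of the IL-6 libraries. An antisense gene of low level, Gm45542 (mean 0.0221 FPKM), overlaps 381 of its exon bases, and whether the counting used strand is not given in the sources used here.

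**Figure D2:**
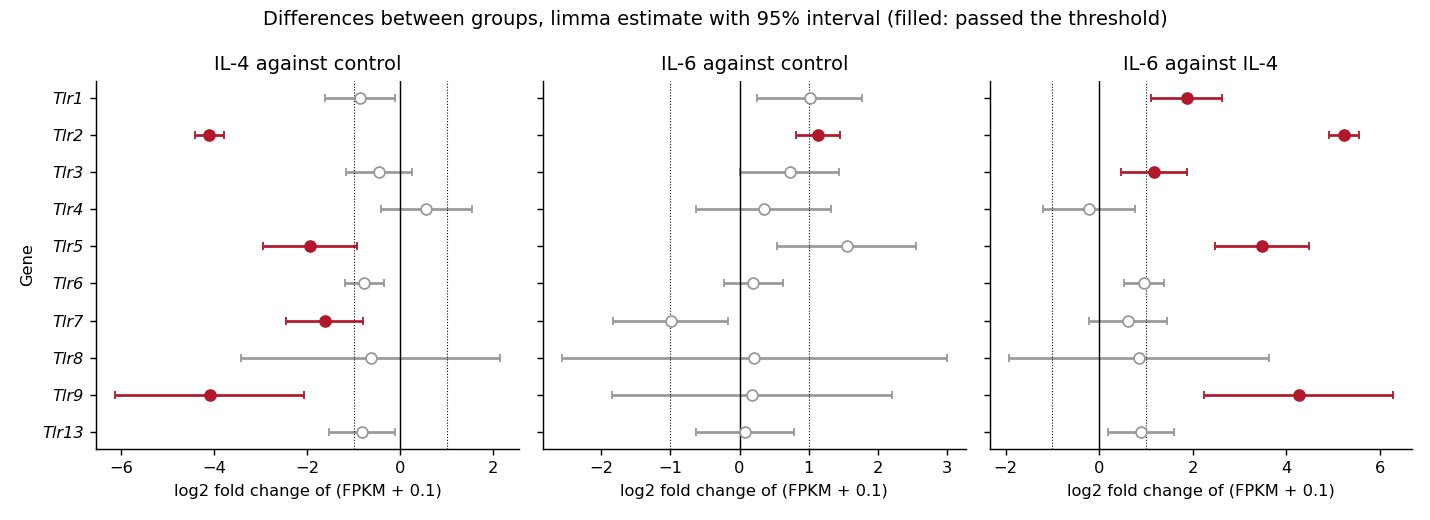
Log2 fold change of (FPKM + 0.1) for each receptor in the 3 comparisons, as limma estimate with its 95% interval. Filled points passed the threshold, and dotted lines mark a log2 fold change of 1 in either direction. Tlr2 has the narrowest intervals and Tlr8 and Tlr9 the widest.

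**Figure D3:**
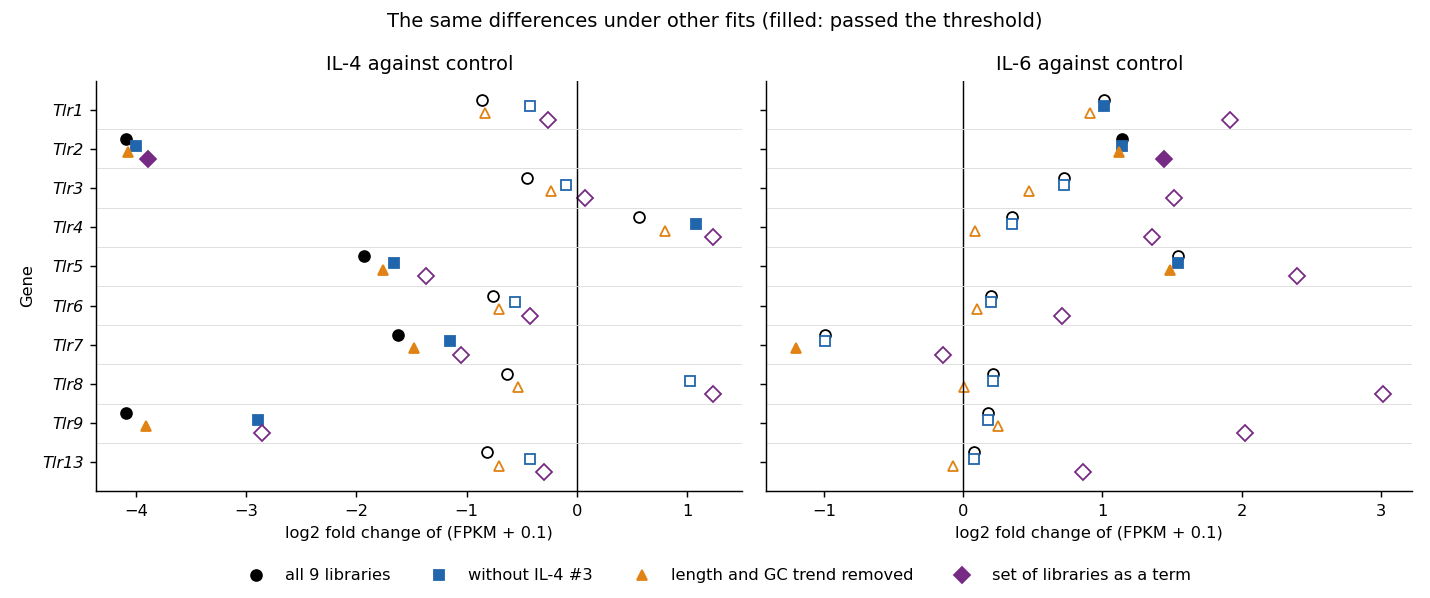
Log2 fold change of (FPKM + 0.1) of each receptor for IL-4 and for IL-6 against control under 4 fits, filled where the threshold was passed. Tlr2 is filled in all 4 fits of both panels, Tlr8 changes sign for IL-4 without IL-4 #3 and after set adjustment (diamonds), where only Tlr2 is filled.

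Per kilobase of exon, the order of the receptors differed between conditions. In control it was Tlr13 (82.0 ± 10.9 FPKM), Tlr7, Tlr2 and Tlr8 (40.3 ± 20.3 FPKM), each overlapping the next in range, then Tlr1, which overlapped Tlr8. Tlr4, Tlr9 and Tlr6 followed between 12.0 and 14.6 FPKM with overlapping ranges, and Tlr3 and Tlr5 were lowest. With IL-4, Tlr8 (51.5 ± 44.0 FPKM) and Tlr13 (49.6 ± 20.5 FPKM) led, and Tlr2 was in place 7, apart in range from Tlr6 above it and Tlr3 below it. With IL-6, Tlr2 led, apart from Tlr13 (86.0 ± 8.64 FPKM), which was itself apart from Tlr1. The share of Tlr2 in the summed receptor FPKM was 16.9% ± 3.29 in control, whereas it was 2.15% ± 1.40 with IL-4 and 29.9% ± 0.877 with IL-6 (SD, n = 3). Tlr7 made up 21.4% ± 0.375, 14.0% ± 2.26 and 8.67% ± 0.413 in the same order. The share of Tlr4 was 13.9% ± 1.34 with IL-4, the lowest IL-4 library included (13.1 to 15.5%), against 4.71% ± 0.610 in control and 4.84% ± 0.107 with IL-6. Shares are parts of 1 sum, so a rise of some lowers the rest.

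**Figure D4:**
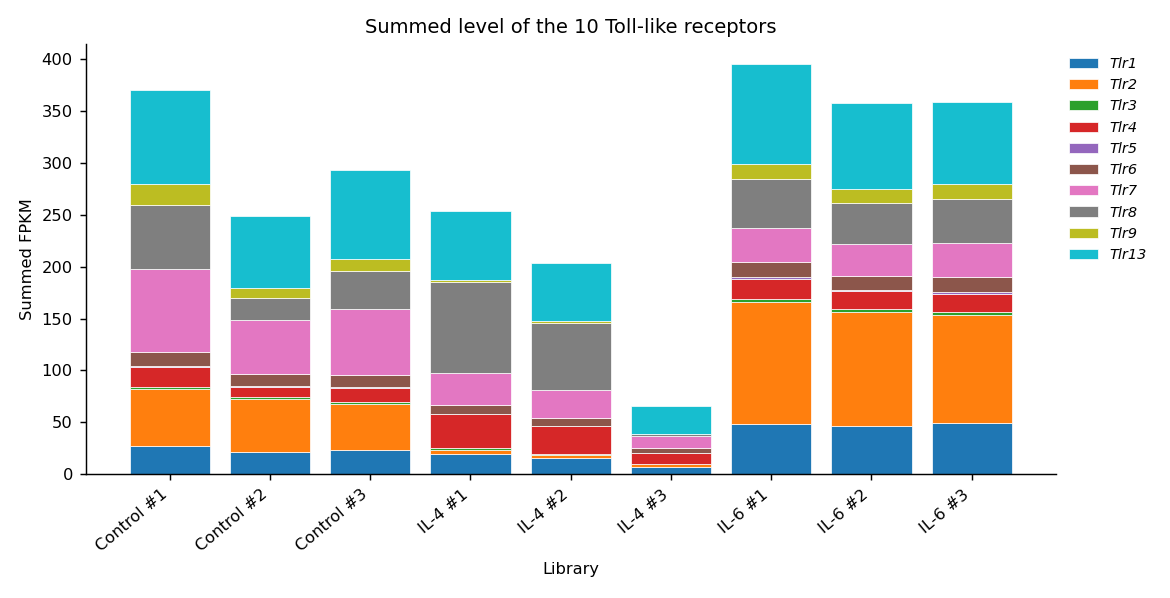
Summed FPKM of the 10 receptors in each of the 9 libraries, stacked by receptor from a baseline of 0. The control sums are 249 to 370 FPKM, the IL-4 sums 65.5 to 253 FPKM and the IL-6 sums 358 to 395 FPKM, with IL-4 #3 lowest of all.

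For the 3 receptors of widest range, the tested genes with the most similar profile were found by the root mean square difference of centered log2 values over the 9 libraries, among 12814 genes. For Tlr2 they were Cx3cr1 (0.282), Lpcat2 (0.292) and Slc16a9 (0.332). For Tlr8 they were Gm11699 (0.292), Piezo1 (0.324) and Gm16907 (0.340), and for Tlr9 Gm28913 (0.526), Mir7240 (0.548) and Gm37261 (0.599). The points share libraries and depth, and IL-4 #3 enters all of them.

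The partners of the surface receptors divided. Of 9 co-receptor genes, 3 fell and 1 rose with IL-4, and 2 rose and 2 fell with IL-6 (medians of −0.22 and 0.03). Of all genes tested, 8.89% fell and 5.02% rose with IL-4, and 3.49% rose and 1.89% fell with IL-6. Cd14, which hands lipopolysaccharide and lipopeptides to Tlr4 and Tlr2, was at 109 to 141 FPKM in control, 15.0 to 34.0 FPKM with IL-4 and 288 to 316 FPKM with IL-6. It fell with IL-4 (log2 fold change −2.53, limma adjusted p = 0.000366) and rose with IL-6 (1.27, adjusted p = 0.0262). The latter call was lost after set adjustment (0.50, adjusted p = 0.392), after median-ratio scaling and when any 1 control or IL-6 library was left out. Lbp, the plasma protein that loads Cd14, moved the same ways, from 2.30 to 2.95 FPKM in control to 0.342 to 0.519 FPKM with IL-4 and 5.73 to 6.18 FPKM with IL-6, where the call for IL-6 was lost after set adjustment (adjusted p = 0.122). Ly96 (MD-2), the lipid-binding partner of Tlr4, did not pass and stayed between 13.3 and 18.9 FPKM over the 9 libraries. Ly86 (MD-1) fell with IL-4 (−1.09, limma adjusted p = 0.000778), though under the threshold for size after median-ratio scaling or set adjustment. Its partner Cd180, a receptor-like protein, was at 47.3 to 61.0 FPKM in control, 11.8 to 48.9 FPKM with IL-4 and 26.3 to 29.8 FPKM with IL-6 and did not pass. Cd36, a scavenger receptor that works with Tlr2 and Tlr6, rose with IL-4 (1.54, adjusted p = 0.00256) and fell with IL-6 (−3.50, adjusted p = 0.000171), the latter also after set adjustment (−3.20, adjusted p = 0.0244). Clec7a (Dectin-1), a β-glucan receptor, fell with IL-6 (−1.23, limma adjusted p = 0.0201), though not after set adjustment (−0.65) or when any 1 control or IL-6 library was left out.

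A list of chaperones, trafficking factors and endolysosomal enzymes had 14 tested genes, not all of them specific to the endolysosomal receptors. With IL-4, 3 rose, all of them cathepsins, which are proteases (median of the list −0.36), against 5.02% of all genes tested. With IL-6 limma called 0, with 7 at an unadjusted p under 0.05 and 0 called by voom. Ctsk went from 5.19 to 9.01 FPKM in control to 163 to 277 FPKM with IL-4 (log2 fold change 4.94, limma adjusted p = 7.19e-06). Ctsl rose by 1.60 and Ctss by 1.29 on the log2 scale. Unc93b1, the chaperone on which the endolysosomal receptors depend, was at 395 to 439 FPKM in control, 273 to 282 FPKM with IL-4 and 330 to 375 FPKM with IL-6. Its groups were separate, and its log2 fold change with IL-4 of −0.59 (limma adjusted p = 0.00524) was under the threshold for size.

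Of the adaptors, limma called 0 of 5 tested against control with either cytokine, with 2 at an unadjusted p under 0.05 for IL-4 and 1 for IL-6, and voom called 0 in each. Myd88, the adaptor of all these receptors but Tlr3, was at 28.6 to 31.0 FPKM in control, 20.9 to 24.4 FPKM with IL-4 and 49.9 to 54.5 FPKM with IL-6. Its groups did not overlap. The log2 fold change was 0.81 with IL-6 (limma adjusted p = 0.00252), under the threshold for size, and 1.19 between IL-6 and IL-4, which passed (adjusted p = 7.02e-05), though not after median-ratio scaling. Tirap, Ticam1 and Ticam2 had log2 fold changes of −0.38, −0.15 and 0.30 with IL-4 and of 0.57, −0.40 and −0.17 with IL-6, none of which passed. Among 19 kinases and ubiquitin ligases, 3 fell with IL-4, namely Ikbke (−1.92, limma adjusted p = 8.6e-05), Map3k8 (−1.43) and Irak2 (−1.09). As 8.89% of all genes tested fell too, the count is not read as a result about the list. Map3k8 lost its call without Control #1 and Irak2 without IL-4 #3 (−0.86), and after set adjustment Ikbke alone passed. With IL-6 limma called 0 of the 19, with 3 at an unadjusted p under 0.05 and 0 called by voom.

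Inhibitors of the pathway went in both directions with IL-4, where 3 of 17 rose and 4 fell, and 1 rose with IL-6. Over all genes tested, 5.02% rose and 8.89% fell with IL-4. With IL-6 3.49% rose, so the 1 rise is near that background. Irak3 (IRAK-M), which blocks the Irak kinases, was at 14.0, 11.6 and 12.3 FPKM in control, 4.54, 4.40 and 2.19 FPKM with IL-4, and 29.9, 27.8 and 27.6 FPKM with IL-6. Its 3 groups were in the same order as those of Tlr2. It fell with IL-4 (log2 fold change −1.81, limma adjusted p = 0.00155) and rose with IL-6 (1.16, adjusted p = 0.0302), the latter neither after set adjustment (adjusted p = 0.121) nor when any 1 control or IL-6 library was left out. Socs1, an inhibitor of cytokine and receptor signaling, rose with IL-4 from 1.20 to 1.45 FPKM to 21.3 to 31.3 FPKM (4.20, adjusted p = 3.36e-06). Tnip3 and Il1rl1 also rose with IL-4, by 2.31 and 2.62 on the log2 scale. Il1rl1 met the filter on mean FPKM only through its IL-4 libraries, with means of 0.219 FPKM in control and 0.124 FPKM with IL-6.

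Of 20 genes known to be induced by receptor ligands in Mϕs, 14 were tested. With IL-4, 7 fell and 1 rose, and with IL-6, 8 rose (medians of −1.07 and 1.37). The shares of all genes tested were 8.89% lower and 5.02% higher with IL-4 and 3.49% higher with IL-6. The 1 rise with IL-4 is near that background. The gene that rose with IL-4 was Ch25h, an enzyme that makes 25-hydroxycholesterol, at 0 to 0.0849 FPKM in control and 1.60 to 3.82 FPKM with IL-4. Ch25h met the filter on mean FPKM only through its IL-4 libraries (means of 0.0365 FPKM in control and 0.0473 FPKM with IL-6). Likewise Ptgs2, among the rises with IL-6, met it only through IL-6 (0.146 FPKM in control and 0.244 FPKM with IL-4). Their place among the tested genes thus came from the group in which they are counted. Il1b was at 2.14 to 3.76 FPKM in control, 0.767 to 1.19 FPKM with IL-4 and 65.6 to 79.6 FPKM with IL-6 (log2 fold change with IL-6 4.47, limma adjusted p = 4.98e-05). Acod1, which makes itaconate, rose with IL-6 from 1.85 to 2.92 FPKM to 37.6 to 56.4 FPKM. Marco, a scavenger receptor, fell with IL-4 (−6.40 on the log2 scale) and rose with IL-6 (1.74, limma adjusted p = 0.00557), though not after set adjustment (1.11, adjusted p = 0.236). After set adjustment 6 of the 14 genes passed for IL-6, against 187 of all 12824 genes tested.

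**Figure D5:**
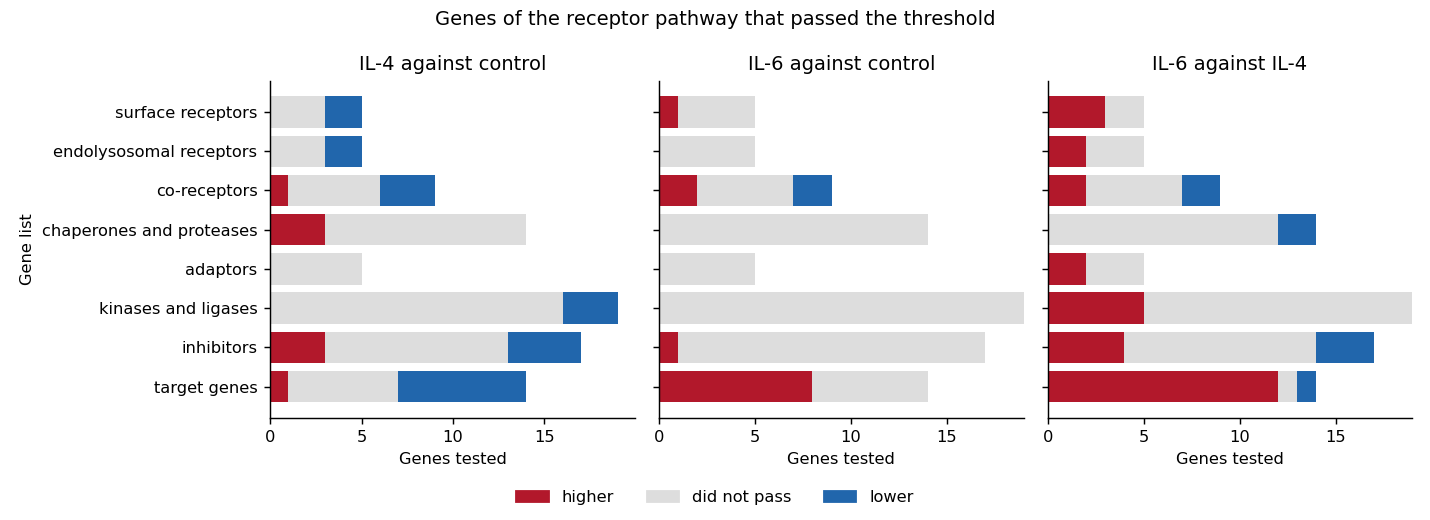
Number of tested genes in each list of the receptor pathway that were higher, lower or did not pass, for the 3 comparisons. The bars start at 0 and their length is the number tested. The target genes have 7 lower with IL-4 and 8 higher with IL-6, against 8.89% and 3.49% of all genes tested. The kinases and adaptors have no call for IL-6 against control by limma.

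Markers of the cells the cultures could hold were also counted, and the lists did not all move alike. Beside their counts, 8.89% of all genes tested fell and 5.02% rose with IL-4, and 3.49% rose with IL-6. All 9 Mϕ markers were present, summing to 16928 to 19345 FPKM in control, 6463 to 7896 FPKM with IL-4 and 20449 to 21533 FPKM with IL-6, and 4 of them fell with IL-4 (Fcgr1, Lyz2, Adgre1 and Csf1r), or 2 after set adjustment. The 10 granulocyte markers summed to 1026 to 1694 FPKM in control, 352 to 550 FPKM with IL-4 and 1663 to 2309 FPKM with IL-6, none at 0, with 8 of 10 lower with IL-4 and 1 higher with IL-6 (Mmp8). After set adjustment 3 were called for IL-4 and 0 for IL-6. As for Tlr2 the IL-4 libraries were lowest, while the IL-6 and control sums overlapped, and the part of these cells in the Tlr2 levels was not tested. In bulk RNA, fewer cells of a type and less RNA per cell cannot be told apart. B cell markers, relevant to Tlr9, summed to 32.3 to 57.7 FPKM in control, 28.2 to 36.7 FPKM with IL-4 and 22.1 to 38.1 FPKM with IL-6, and limma called 0 of 7 tested for IL-4 against control, with 0 at an unadjusted p under 0.05 and 0 called by voom. Plasmacytoid dendritic cell markers summed to 14.8 to 22.2, 17.1 to 68.9 and 13.2 to 20.9 FPKM, and with IL-4 Siglech and Ccr9 fell and Cox6a2 rose, none of which was called after set adjustment. Conventional dendritic cell markers summed to 2.92 to 4.46, 2.52 to 2.90 and 2.94 to 5.49 FPKM. Mast cell and basophil markers summed to 13.0 to 28.8, 47.1 to 78.8 and 5.92 to 23.5 FPKM, with 4 of 5 tested higher with IL-4, or 1 called after set adjustment. Of the mast cell proteases, Mcpt4 and Tpsb2 were at 0 in all libraries, while Cma1 was at 0 in every control and IL-6 library and at 0.303 to 0.667 FPKM with IL-4 (10 to 29 fragments). What part these cells have in the receptor levels was not tested.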

How the data were processed

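RNA of 9 libraries was analysed. The authors deposited FPKM per gene, and per the labels and the methods reads were aligned with STAR 2.4.2a to GRCm38 and quantified with Cufflinks 2.2.1, from libraries of polyadenylated RNA made with a stranded kit. Of the 53379 gene identifiers, 50604 matched GENCODE M21 with their version (94.8%), Tlr13 not among them, and coordinates are from M21. Over M21 exon lengths 100% of 183346 values above 0 were whole fragments within 0.05 (of the 141451 values of at most 1000 fragments, 100% as well), so fragments per library were read back. Such steps are those of a read count, and the program behind the table is not settled. Every value of the 10 receptors was above a floor of 3 fragments, which covers counting error only.

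log2(FPKM + 0.1) was fitted for genes with a mean of at least 0.5 FPKM in limma 3.58.1 (R 4.3.3, trend and robust options), with 3 groups in 1 model. Tests are two-sided, the change of low genes is understated on this scale, and errors of means are SD of 3 libraries. Python 3.11.15, numpy 2.4.6, pandas 2.3.3, scipy 1.17.1 and matplotlib 3.10.9 made tables and plots. The fit was tested on simulated data.

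The members, lists and tests were chosen with earlier results of these data known. Named genes are the 10 receptors, up to 4 genes of each pathway list with the largest log2 fold change among those called against control, 10 defining partners, and the 3 genes most like each of the 3 receptors of widest range. Genes listed as marker calls, Gm45542 and any other gene outside that rule were named after their values were seen. Of the pathway genes, Tasl was not matched and is not used here.

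Alternatives were pseudocounts of 1 and 0.01, no filter or one at 5 FPKM, median-ratio or quantile scaling, only the groups compared, the replicate block, adjusted p alone, leaving out each library, set adjustment and voom on recovered fragments. Removal of each library's trend on exon length and GC content (splines, 5 degrees of freedom), and ratios of means within a set, were chosen after seeing the data.

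The column headers number the mice, and the series text names 3 of them, so same-numbered libraries can be paired. The main fit and the permutation test did not use this pairing, which entered only in the replicate block. For mouse 1, 2 and 3, deviations from the group means had r of 0.521, −0.415 and 0.0777 for control with IL-4. For control with IL-6, r was 0.408, 0.201 and 0.166, and for the cytokines with each other 0.281, −0.0612 and 0.153.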

Additional observations from a re-analysis of the deposited data

How the results depend on the processing

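With IL-4 against control, 4 receptors passed, 2 when only the groups compared were fitted, 1 after set adjustment, and 3 to 6 when a library was left out (6 without IL-4 #1). Of all 12824 genes tested, 1784 passed, 1356 in the fit of the groups compared and 1111 after set adjustment. Leaving out a library gave 1450 to 2150. The 1 receptor after set adjustment is near that background. With IL-6 against control, 1 passed, 2 after median-ratio scaling or with voom, 3 after quantile scaling, in the fit of the groups compared or with the length and GC trend removed, and 1 to 3 when a library was left out (2 without Control #1 and 3 without IL-4 #3). Over all genes tested 690 passed, 707 after median-ratio scaling, 808 after quantile scaling and 985 in the fit of the groups compared. Among 11372 genes, 605 passed with voom and 738 with the length and GC trend removed. With a library left out, 387 to 1001 passed. Between IL-6 and IL-4, 5 passed, 3 with the filter at a mean FPKM of 5, which leaves 8 receptors tested, 7 after set adjustment, and 4 to 7 when a library was left out. Over all genes 2613 of 12824 passed, 1219 of 6559 with that filter and 3274 of 12824 after set adjustment. With a library left out, 2124 to 3274 passed. The value of Tlr3 with IL-4 was 0.0745 on the log2 scale after set adjustment (adjusted p = 0.951) and −0.46 without it. Tlr8 with IL-4 was −0.63, and 1.24 after set adjustment. Tlr4 between IL-6 and IL-4 was −0.22, and 0.12 after set adjustment. Tlr13 with IL-6 was 0.07, and −0.0748 with the length and GC trend removed. When a library was left out, the sign turned for Tlr8 with IL-4 (−1.57 to 1.03), Tlr8 with IL-6 (−0.16 to 0.59), Tlr8 between IL-6 and IL-4 (−0.81 to 1.78), Tlr4 between IL-6 and IL-4 (−0.73 to 0.12), Tlr9 with IL-6 (−0.0812 to 0.52) and Tlr13 with IL-6 (−0.0387 to 0.15). None of these values passed. Among 624 alternative values of the receptors, 11 had the other sign, 576 kept sign and side of the threshold, 21 newly passed and 16 no longer passed. The cause of these changes was not tested. Many of the 624 could not change sign. The filters, the replicate block, the fit of the groups compared and adjusted p alone leave the estimate as it was. Leaving out a library of the group not compared does so too. The counts thus do not measure how stable the signs are. With the replicate block, pairing libraries by mouse, 4, 1 and 5 receptors passed in the 3 comparisons, and no receptor call changed. Over all genes tested 1788, 656 and 2734 passed with the block.

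The scaling moved the split over all genes. With IL-4, 644 genes were higher and 1140 lower, 834 and 874 after median-ratio scaling, 824 and 849 after quantile scaling, 749 and 801 with the length and GC trend removed, and 513 and 598 after set adjustment. The median log2 fold change of all genes with IL-4 was −0.20 as deposited and −0.01 after median-ratio scaling. Under the latter Tlr2, Tlr5, Tlr7 and Tlr9 still passed. With IL-6, 690 genes passed, and 187 after set adjustment. Depth limits Tlr5 and Tlr9 most, at 7 and 6 fragments in IL-4 #3.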

Other observations

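The mouse family has further receptors outside the 10 described. Tlr11 and Tlr12, endolysosomal sensors known for binding parasite profilin, were low in control and higher with IL-4. Tlr12 was at 0.532, 0.514 and 0.574 FPKM in control, 2.25, 1.24 and 0.765 FPKM with IL-4, and 0.460, 0.627 and 0.963 FPKM with IL-6. All IL-4 libraries lay above all control libraries, with a log2 fold change of 1.12 that did not pass (limma adjusted p = 0.0687), and without IL-4 #3 it was 1.47 and passed. Tlr11, below the filter, was at 0.131, 0.102 and 0.131 FPKM in control (10 to 15 fragments), 1.19, 0.574 and 0.222 FPKM with IL-4, and 0.0700, 0.0281 and 0 FPKM with IL-6, the last a library with no fragment. In the fit without the filter its log2 fold change with IL-4 was 1.57 (limma adjusted p = 0.0851). IL-4 #3 was the lowest IL-4 library for both, as it was for the 10 receptors.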
